A study of Mus musculus with 5 samples.

Results

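Low-score private demethylated bins are stretches of 10 kb that 1 single hepatocyte, and none of the 3 others, listed as less methylated than a pool of liver cells, with a score below 400. They were taken from the demethylation lists of the 4 cells by 3 conditions: a width of 10 kb, a chromosome and start found in 1 list only, and the score limit. There were 321 of them among 795 private demethylated bins, 992 different demethylated bins and 1498 calls of all lists. Cell 1 held 165, cell 2 held 114, cell 3 held 32 and cell 4 held 10. The score is the authors' own value; over all lists it ran from 0 to 1000, and no source used here defines it.

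The study set single liver cells of C57BL/6 mice against a reference cell pool, using bisulfite sequencing of a genome fraction cut with MseI, an enzyme that cuts at TTAA. Livers were perfused with collagenase, and hepatocytes, which carry out most of the liver's metabolism, were picked 1 by 1 with capillaries. Cells 1 and 2 received 2 ng of salmon DNA and cells 3 and 4 received 2 ng of tRNA cDNA as carrier. The labels give no age, sex or animal for any cell, so each cell is 1 library and the spread between cells may be technical or biological. The lists hold no expression, so the hepatocyte label could not be checked against marker genes. How deeply each cell was read, and which bins it covered, is unknown, and the pool's own levels were not used here, so what a low score says about the distance from the pool is not known.

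DNA methylation in mammals sits mostly on the cytosine of CpG dinucleotides, where it is copied to the new strand after each round of replication. Most CpGs of the genome are methylated, while dense clusters of CpGs at many promoters stay free of methylation. A loss can arise when copying fails or when TET enzymes oxidise the methyl group. A loss seen in 1 cell and not in its neighbours is the kind of event that a pool of cells averages out.

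The sequences below show what promoters inside these bins look like, because CpGs are the letters that the assay reads. They are the RefSeq (GRCm38.p6) windows of 250 bases before to 50 bases after the annotated start of a protein-coding gene. In each cell they come from the 2 lowest-scored of its bins that held a start with a window in the table used. That table does not hold all genes, and Hes1 and Cbx2, whose bins scored lower, are among those without a window. Of several starts in a bin, the one nearest the middle is shown. Capitals mark every CpG. Which of these CpGs the reads of a cell covered is unknown, and each score belongs to the whole 10 kb bin.
Ifrd2: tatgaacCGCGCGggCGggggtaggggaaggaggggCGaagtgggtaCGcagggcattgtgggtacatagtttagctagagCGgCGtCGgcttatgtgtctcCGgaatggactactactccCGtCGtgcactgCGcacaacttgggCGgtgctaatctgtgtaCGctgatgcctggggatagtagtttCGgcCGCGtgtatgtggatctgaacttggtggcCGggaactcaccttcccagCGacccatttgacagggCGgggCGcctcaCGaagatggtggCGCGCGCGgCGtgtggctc
Tmed1: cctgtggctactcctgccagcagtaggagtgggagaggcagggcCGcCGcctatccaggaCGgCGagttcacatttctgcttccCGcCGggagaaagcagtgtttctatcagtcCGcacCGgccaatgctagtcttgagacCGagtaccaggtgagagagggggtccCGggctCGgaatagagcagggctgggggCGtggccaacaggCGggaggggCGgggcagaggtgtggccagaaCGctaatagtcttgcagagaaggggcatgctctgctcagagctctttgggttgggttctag
Cfap45: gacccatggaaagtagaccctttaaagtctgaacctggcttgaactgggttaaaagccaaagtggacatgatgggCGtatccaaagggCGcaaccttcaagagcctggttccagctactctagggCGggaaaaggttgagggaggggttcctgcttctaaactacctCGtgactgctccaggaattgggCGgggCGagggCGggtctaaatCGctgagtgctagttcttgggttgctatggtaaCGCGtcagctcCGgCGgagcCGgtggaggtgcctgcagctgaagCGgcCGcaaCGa
Scgb2b3: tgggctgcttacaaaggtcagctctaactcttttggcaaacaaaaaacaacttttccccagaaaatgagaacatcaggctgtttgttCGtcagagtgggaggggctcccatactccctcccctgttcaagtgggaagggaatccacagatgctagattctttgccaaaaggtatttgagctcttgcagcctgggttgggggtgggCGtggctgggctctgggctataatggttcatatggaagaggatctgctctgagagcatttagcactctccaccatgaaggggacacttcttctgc
Wfdc15b: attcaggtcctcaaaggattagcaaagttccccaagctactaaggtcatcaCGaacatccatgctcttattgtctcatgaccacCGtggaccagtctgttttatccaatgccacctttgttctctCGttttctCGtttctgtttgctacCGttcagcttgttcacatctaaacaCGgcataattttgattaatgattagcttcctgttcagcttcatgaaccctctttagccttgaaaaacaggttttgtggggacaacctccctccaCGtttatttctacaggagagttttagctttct
Abtb1: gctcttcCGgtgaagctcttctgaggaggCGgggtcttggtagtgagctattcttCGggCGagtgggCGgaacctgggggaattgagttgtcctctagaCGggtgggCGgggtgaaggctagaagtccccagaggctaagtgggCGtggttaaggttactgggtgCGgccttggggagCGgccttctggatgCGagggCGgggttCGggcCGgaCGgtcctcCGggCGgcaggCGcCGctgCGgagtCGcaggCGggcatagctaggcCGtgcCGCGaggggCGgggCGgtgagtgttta
Atxn7l2: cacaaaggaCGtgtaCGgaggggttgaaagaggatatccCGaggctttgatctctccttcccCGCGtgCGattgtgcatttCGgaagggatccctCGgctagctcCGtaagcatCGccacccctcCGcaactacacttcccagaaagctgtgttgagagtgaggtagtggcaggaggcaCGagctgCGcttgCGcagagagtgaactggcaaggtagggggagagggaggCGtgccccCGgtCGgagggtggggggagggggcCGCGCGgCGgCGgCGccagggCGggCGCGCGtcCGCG
Tmem150b: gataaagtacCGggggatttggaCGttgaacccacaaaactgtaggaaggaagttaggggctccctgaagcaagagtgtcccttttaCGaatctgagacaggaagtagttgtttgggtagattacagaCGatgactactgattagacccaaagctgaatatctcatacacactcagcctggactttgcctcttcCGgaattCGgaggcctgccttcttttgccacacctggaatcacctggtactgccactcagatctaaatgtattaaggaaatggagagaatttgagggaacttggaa
The windows ranged from CpG-poor to CpG-rich. The Ifrd2 window (chr9:107587468-107587767, plus strand) held 28 CpGs, in a bin that scored 154 in cell 1. Ifrd2 encodes an interferon-related developmental regulator. The Tmed1 window (chr9:21509845-21510144, minus strand) held 15, in a bin of cell 1 that scored 231, and belongs to a gene of vesicle transport. In cell 2 the window of Cfap45, a gene of the cilium and sperm tail, held 16 (chr1:172520880-172521179, plus strand, score 71). That of the secretoglobin gene Scgb2b3 held 2 (chr7:31362051-31362350, minus strand, score 91). These 2 windows of cell 2 thus stood far apart in CpG number although their bins had close scores. In cell 3 the window of the protease inhibitor gene Wfdc15b held 7 (chr2:164221614-164221913, minus strand, score 91) and that of Abtb1 held 27 (chr6:88841886-88842185, minus strand, score 308). In cell 4 those of Atxn7l2 (chr3:108210478-108210777, minus strand, score 364) and Tmem150b (chr7:4725202-4725501, minus strand, score 385) held 29 and 6. Within cells 2, 3 and 4 the pair of windows differed more in CpG number than within cell 1.

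MicroRNA hairpins also overlapped these bins themselves, 4 of the 954 on the chromosomes used (0.419%), in 4 different bins. Of all RefSeq genes 0.708% had a bin, but that share allows 2000 bp on either side of a gene. The shares thus follow unlike rules and show no lack. With 2000 bp allowed, Mir1900 also had a bin, that of Icam5 in cell 3 (286). Their mature sequences are given because the bin of Mir3089 was among the lowest-scored of all, and bases 2 to 8, the seed that pairs with target RNAs, are in capitals.
mmu-miR-1934-5p: uCUGGUCCccugcuucguccucu
mmu-miR-1934-3p: aGGAUGACgguggggcugguga
mmu-miR-6931-3p: cCCAACCUcuucauaccccag
mmu-miR-6931-5p: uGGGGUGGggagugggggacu
mmu-miR-1905: cACCAGUCccaccacgcgguag
mmu-miR-3089-5p: uGAGUUCAgggacagcgugucu
mmu-miR-3089-3p: aGCAUCUGcugauccugagcugu
The bin of Mir3089 scored 67 in cell 2 (chromosome 2, 30715000 to 30725000) and also held the non-coding genes Gm14488 and Gm39782. The other 3 bins that a hairpin overlapped were of cell 1, with scores of 200 for Mir6931, 286 for Mir1905 and 333 for Mir1934. The 7 mature forms had 7 different seeds, so no seed family was represented more than once.

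The scores of the bins were uneven, with most of them close to the limit. Of the 321 bins, 179 scored 300 or more, 87 scored at least 200 but below 300, 36 scored at least 100 but below 200 and 19 scored below 100. They took 32 values; 65 bins had a score of 364, the commonest. Just inside the limit, 16 private bins scored 385 and 2 scored 389; just outside it, 12 scored 400 and 1 scored 409. The lowest, median and highest scores were 0, 308 and 389 in cell 1, 0, 312 and 385 in cell 2, 91, 320.5 and 385 in cell 3, and 83, 279 and 385 in cell 4. The medians of cells 1 to 3 thus lay close together and that of cell 4 lower. These values chose the bins and are given as a description.

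**Figure D1:**
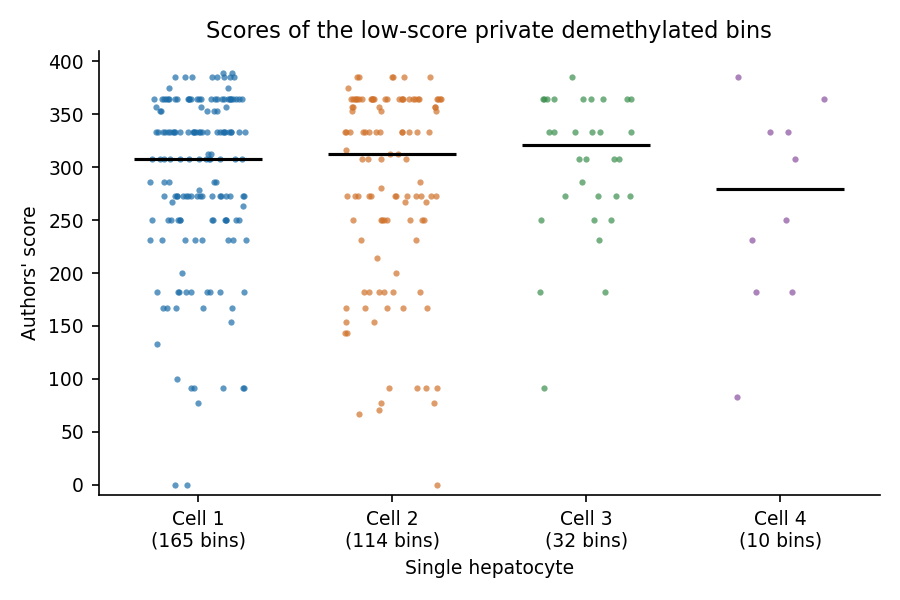
Scores of the 321 low-score private bins (vertical axis, the authors' unit), 1 point per bin, by single hepatocyte (horizontal axis); black lines are medians. The points gather on a few values such as 364, and the medians of cells 1 to 3 (308, 312 and 320.5) sit above that of cell 4 (279).

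Cell 4 stood apart in how much of its private list was low-scored. Low scores made up 165 of 430 private bins in cell 1 (38.4%, exact Clopper-Pearson 95% interval 33.8 to 43.2%), 114 of 268 in cell 2 (42.5%, 36.5 to 48.7%) and 32 of 83 in cell 3 (38.6%, 28.1 to 49.9%). In cell 4 they made up 10 of 14 (71.4%, 41.9 to 91.6%). The same held for the demethylated bins that cell 4 shared with other cells, 43 of 63 of which scored below 400 (68.3%), against 34.2%, 36.7% and 32.7% of those in cells 1 to 3. The intervals cover counting error only, and these shares come from the score that chose the bins.

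The lowest-scored bins of cell 1 lay in genes of very different function. A score of 0 was given to a bin inside Stpg2, which encodes a sperm-tail protein (chromosome 3, 139438000 to 139448000), and to a bin inside the non-coding Gm40102 (chromosome 3, 97547000 to 97557000). Scores of 91 were given at Cbx2, a Polycomb repressor subunit (chromosome 11, 119015000 to 119025000), and at an end of Zmynd11, a reader of methylated histone H3 (chromosome 13, 9684000 to 9694000). The same score was given in the RNA helicase gene Ddx55 beside the translation initiation gene Eif2b1 (chromosome 5, 124559000 to 124569000) and across an end of the zinc finger gene Zfp536 (chromosome 7, 37309000 to 37319000). Ror2, a receptor for Wnt5a, held a bin that scored 100 (chromosome 13, 53243000 to 53253000). The bin with the hyaluronidase genes Hyal1 and Hyal3, the actin acetyltransferase gene Naa80 and Ifrd2 scored 154 (chromosome 9, 107580000 to 107590000), and a bin inside Slit3, a secreted guidance ligand, scored 167 (chromosome 11, 35650000 to 35660000). The 2 lowest bins without a gene within 2000 bp scored 77 (chromosome 7, 86591000 to 86601000) and 91 (chromosome X, 7338000 to 7348000).

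Cell 2 had 9 bins below 100, of which 5 lay at protein-coding genes. Cfap45, named above, had the lowest of these (71; chromosome 1, 172515000 to 172525000). Scores of 77 were given inside Smg6, a nuclease gene of nonsense-mediated RNA decay (chromosome 11, 74967000 to 74977000), and at Ccr4, a chemokine receptor gene of T cells (chromosome 9, 114484000 to 114494000). Def6, an exchange factor gene of lymphocytes, and Scgb2b3 had scores of 91 (chromosome 17, 28214000 to 28224000, and chromosome 7, 31355000 to 31365000). Mycbpap (chromosome 11, 94526000 to 94536000) had 143, as did the bin of Psd2 and the ErbB ligand gene Nrg2 (chromosome 18, 36015000 to 36025000). M1ap, a gene needed for male meiosis, had 154 (chromosome 6, 83016000 to 83026000). The lowest bins without a gene scored 0 (chromosome 3, 30733000 to 30743000) and 91 (chromosome 13, 38112000 to 38122000).

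Cells 3 and 4 had few bins of this kind, with 1 below 100 in each. In cell 3 it lay at Wfdc15b (91; chromosome 2, 164214000 to 164224000). Scores of 182 followed for Aifm3 with Lztr1, the latter an adaptor in the breakdown of Ras proteins (chromosome 16, 17497000 to 17507000), and for the ciliary gene Cfap44 (chromosome 16, 44399000 to 44409000). Rnf17, a germ cell gene, had 231 (chromosome 14, 56508000 to 56518000). The oxysterol-binding gene Osbpl6 had 273 (chromosome 2, 76569000 to 76579000), the neuronal adhesion gene Icam5 had 286 (chromosome 9, 21033000 to 21043000) and the trafficking gene Trappc9 had 308 (chromosome 15, 72883000 to 72893000). The lowest bins without a gene both scored 273 (chromosome 14, 57166000 to 57176000 and 76580000 to 76590000).

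In cell 4 the bin of the sorting nexin gene Snx25 scored 83 (chromosome 8, 46120000 to 46130000). Scores of 182 were given in Klhl3, an adaptor for the breakdown of WNK kinases, with Hnrnpa0 (chromosome 13, 58115000 to 58125000), and at Hes1, a repressor that Notch signalling switches on (chromosome 16, 30063000 to 30073000). The sodium-proton exchanger gene Slc9a9 had 231 (chromosome 9, 95152000 to 95162000), the unconventional myosin gene Myo18b had 308 (chromosome 5, 112766000 to 112776000) and the spindle checkpoint gene Mad1l1 had 333 (chromosome 5, 140229000 to 140239000). The remaining bins of cell 4 lay at the non-coding A330033J07Rik and Gm52065 (250; chromosome 13, 48136000 to 48146000), at Cyb561d1, Atxn7l2 and Sypl2 (364) and beside Tmem150b (385), and its lowest bin without a gene scored 333 (chromosome 2, 73070000 to 73080000). Each of these bins has a deposited score in 1 cell only. Whether the other cells covered it is unknown.

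Privacy was judged by the exact start, and on the deposited grid of 1 kb a few bins overlapped calls of other cells with a shifted start. Of the 321 bins, 11 overlapped a demethylated bin of another cell by 1 bp or more (3.43%), against 20 of the 474 private bins that scored 400 or more (4.22%). By cell these were 4 of 165, 3 of 114, 3 of 32 and 1 of 10. The low-scored Wfdc15b bin of cell 3 was 1 of them: cells 1 and 2 called the bin that starts 1 kb earlier, with scores of 364 and 455. At Snx25, the bin of cell 1 from 46098000 to 46108000 scored 182 and overlapped a bin starting 8 kb earlier that scored 385 in cell 2 and 133 in cell 4. At Myo18b, bins of cell 2 that scored 385 and 308 overlapped that of cell 4 (308), their starts being 9 kb and 5 kb away. Such bins are private by their start but not by the sequence they cover. Within 100 kb of a demethylated bin of another cell lay 57 of the low-score bins (17.8%) and 97 of the higher-scored private bins (20.5%).

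Overlapping bins of the same cell could have very different scores. In cell 2, the Mycbpap bin scored 143 and a bin starting 2 kb earlier scored 583. In cell 1, the Gm40102 bin scored 0 and a bin starting 7 kb later scored 364, and a bin at A630023P12Rik on chromosome 5 scored 133 where one starting 3 kb later scored 455. In all, 15 of the low-score bins overlapped another demethylated bin of their own cell (4.67%), against 12 of the higher-scored private bins (2.53%). Presence in the lists chose the bins, so these shares were not tested.

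Bins of gained methylation lay near some of these bins but overlapped 0 of the 321 (exact Clopper-Pearson upper limit 1.14%). They overlapped 2 of the 474 higher-scored private bins (0.422%). This share lies below that limit, so the count of 0 does not set the low-score bins apart. Bins of gained methylation came within 100 kb of 21 of the low-score bins (6.54%), and of 21 of the higher-scored private bins (4.43%). Of 20630 protein-coding genes, 237 had a low-score private bin within 2000 bp (1.15%) and 355 a higher-scored private one (1.72%). Among the 237, 8 also held a methylation bin (3.38%), against 10 of the 355 (2.82%) and 149 of all 20630 (0.722%). The 237 and 355 genes were longer, with medians of 49.95 and 41.5 kb against 17.3 kb for all. Length was not matched, so the gap to 0.722% cannot be read as a trait of these genes. At Usp46, a deubiquitinase gene on chromosome 5, cell 2 held both: a demethylated bin that scored 273 (74026000 to 74036000) and, 1 kb further on, a methylation bin that scored 786 (74037000 to 74047000). At Grb2, an adaptor gene of receptor tyrosine kinase signalling on chromosome 11, cell 1 scored 182 in the bin from 115706000 to 115716000 and cell 3 had a methylation bin that scored 824 from 115680000 to 115690000. At Lztr1 the demethylated bin was in cell 3 (182) and the methylation bin in cell 2 (933), 18 kb apart. In Tenm3, a long adhesion gene, they lay 853 kb apart (353 in cell 2 and 870 in cell 3). The others were Cux1, Sipa1l2, Gm35339 and Pcnx3. At Lztr1 and Gm35339 the low-score bin lay outside the gene and counted through the 2000 bp allowed. These 8 genes were chosen after their values were seen.

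Most of the low-score private bins lay in genes. By the midpoint of the bin, 183 lay inside a gene more than 1000 bp from its ends (57.0%), 33 lay no more than 1000 bp from one (10.3%) and 105 were intergenic (32.7%). Over all 10 kb windows of the 1 kb grid these shares were 43.7%, 6.22% and 50.1%; those windows do not follow the bins that the assay covered. The genic share, gene end and gene body together, was 65.5% in cell 1 (95% interval 57.7 to 72.7%), 68.4% in cell 2 (59.1 to 76.8%), 68.8% in cell 3 (49.99 to 83.9%) and 80.0% in cell 4 (44.4 to 97.5%). The 4 intervals overlapped, and the share of cell 4, which rests on 10 bins, lay above the intervals of cells 1 and 2. Of the 55 bins that scored below 200, 32 were genic (58.2%, 44.1 to 71.3%). Of those from 200 to below 300 it was 61 of 87 (70.1%, 59.4 to 79.5%), and of those of 300 or more 123 of 179 (68.7%, 61.4 to 75.4%), so that the intervals overlapped across scores as well.

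Set against the private bins that scored 400 or more, the genic share of the low-score bins differed by -0.961 percentage points in cell 1 and -1.06 in cell 2, where it was lower, and by 11.9 in cell 3 and 5 in cell 4, where it was higher. Cell 4 had only 10 low-score and 4 higher-scored private bins. The mean difference was 3.72 points ± 6.14 (SD, n = 4 cells; two-sided exact sign-flip permutation p = 0.5, adjusted p = 0.875 over 6 comparisons). Set against the demethylated bins that several cells shared, it was higher in 4 of 4 cells, by 0.898, 7.03, 9.34 and 13.3 points in cells 1 to 4. The mean was 7.65 points ± 5.20 (SD, n = 4; exact sign-flip permutation p = 0.13, the smallest that 4 cells can give, adjusted p = 0.75). With 4 cells no such comparison can pass 0.05. The 480 shared calls come from 197 different bins, so the same bins enter the differences of several cells. In each comparison with shared bins the 4 differences are therefore not independent.

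**Figure D2:**
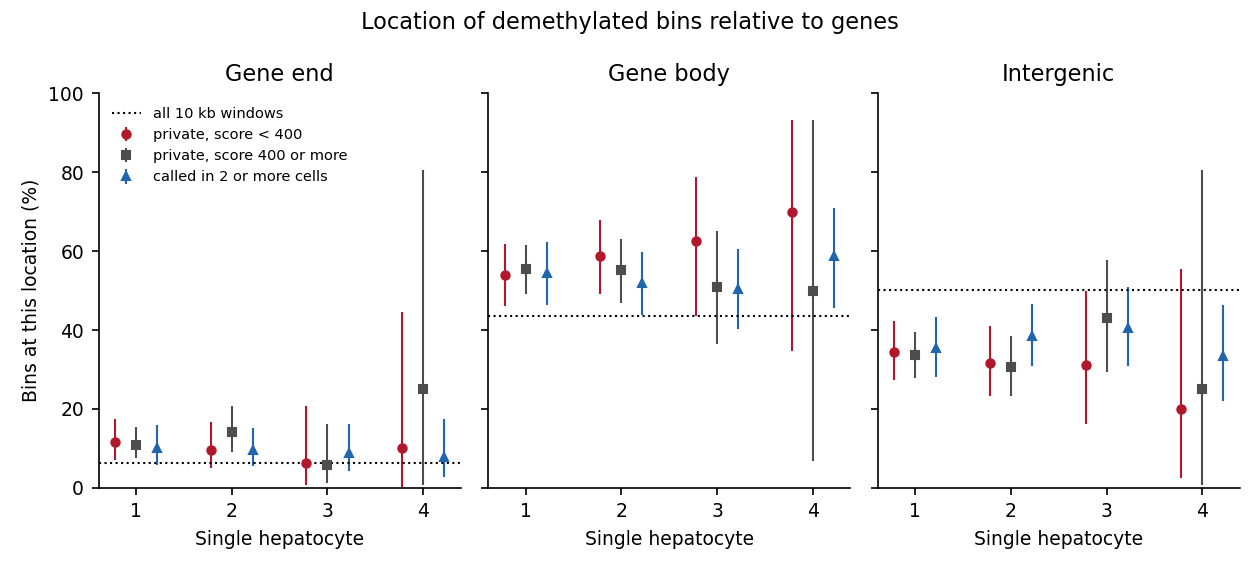
Share of bins (vertical axis, percent) near gene ends, inside genes and outside genes, by single hepatocyte (horizontal axis), with exact 95% intervals that cover counting error only; the dotted line is the share over all 10 kb windows. The intervals of the low-score private bins (red circles) overlap those of higher-scored private bins (grey squares) and of shared bins (blue triangles) in each cell, and those of cell 4 are the widest.

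For gene ends and gene density the 4 cells differed in sign in each comparison. Gene ends took 11.5%, 9.65%, 6.25% and 10% of the low-score bins of cells 1 to 4. In cell 4 this was 1 of 10 bins, against 1 of 4 higher-scored private bins, a difference of -15 points. The difference from higher-scored private bins was -4.67 points ± 7.29 (SD, n = 4; exact sign-flip permutation p = 0.5, adjusted p = 0.875) and that from shared bins 0.237 ± 2.09 (exact permutation p = 0.875, adjusted p = 0.875). The number of genes within 500 kb of the midpoint averaged 30.3, 29.1, 29.4 and 30.2 in cells 1 to 4, close to each other and above the mean of 19.5 over all windows. It differed from higher-scored private bins by -0.516 genes ± 4.77 (SD, n = 4; exact permutation p = 0.75, adjusted p = 0.875) and from shared bins by 0.177 ± 1.19 (exact permutation p = 0.625, adjusted p = 0.875).

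Gene starts with a window in the promoter table lay in 53 of the 310 low-score private bins off chromosome 18 (17.1%, 95% interval 13.1 to 21.8%). The share was 18.4% (15.0 to 22.2%) of the higher-scored private bins and 17.7% (14.4 to 21.4%) of shared calls, and 9.95% of all windows. The interval of the shared calls counts a bin once for each cell that called it. The median distance from the middle of a bin to the nearest start was 21.3 kb, 20.8 kb and 24.3 kb in these 3 sets. By cell the share was 14.9%, 21.1%, 13.3% and 20% of the low-score bins of cells 1 to 4, and 16.9%, 21.6%, 18% and 0% of the higher-scored ones, of which cell 4 had 4. The median distance by cell ran from 14.6 to 24.5 kb in the low-score bins. These shares and distances were not tested. The bins with such a start of a protein-coding gene numbered 41. The table does not hold all genes, Hes1 among them, so these counts are lower bounds.

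The promoters in the low-score bins of cell 1 had the highest median number of CpGs. In cell 1, 17 of 25 protein-coding windows were CpG-rich by the limits given next (68%, 95% interval 46.5 to 85.1%; median 22 CpGs), in cell 2 it was 12 of 24 (50%, 29.1 to 70.9%; median 13), and cells 3 and 4 had 3 and 2 windows. Over all cells, the median window of 54 protein-coding promoters held 17.5 CpGs, against 14.5 in the 78 of higher-scored private bins, 17 in the 32 of shared bins and 13 over all 20036. Windows with a GC content above 50% and an observed-to-expected CpG ratio above 0.6, a usual mark of CpG islands, made up 31 of 54 (57.4%, 95% interval 43.2 to 70.8%), 37 of 78 (47.4%, 36.0 to 59.1%) and 17 of 32 (53.1%, 34.7 to 70.9%), and 45.3% of all protein-coding promoters. The MseI site TTAA, which reads the same on both strands, was in 25 of 54 windows (46.3%, 32.6 to 60.4%), in 28 of 78 of the higher-scored private bins (35.9%, 25.3 to 47.6%), in 15 of 32 of the shared bins (46.9%, 29.1 to 65.3%) and in 48.1% of all. Of the sequences printed above, Atxn7l2 and Ifrd2 were CpG-rich by these limits and Scgb2b3 and Wfdc15b were not. The highest CpG number, 65, belonged to a start of Atp9a, a phospholipid flippase gene, in a bin of cell 1 that scored 357. Neighbouring starts of 1 gene can share bases, so these windows are not all independent.

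**Figure D3:**
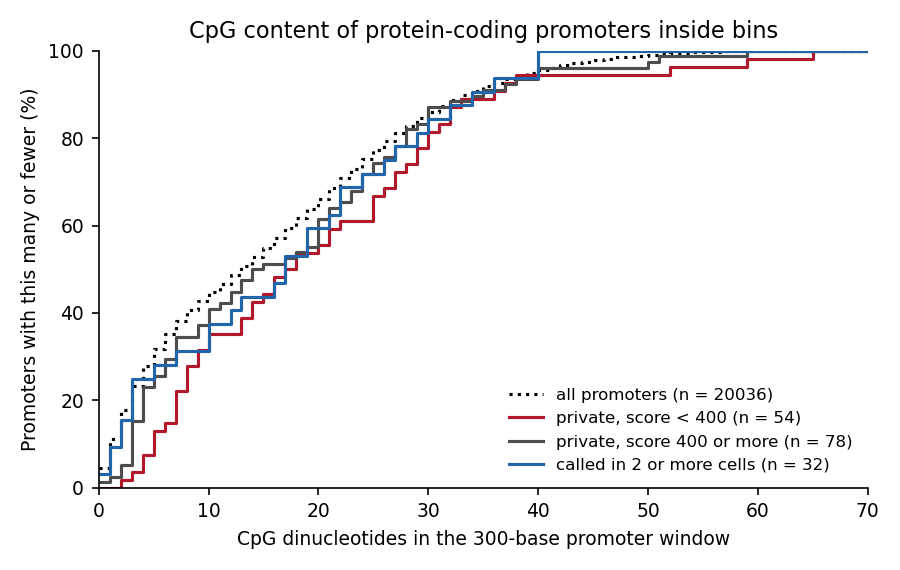
Cumulative share of protein-coding promoter windows (vertical axis, percent) with a given number of CpGs or fewer in 300 bases (horizontal axis), for all promoters (dotted) and for those inside each set of demethylated bins. The red curve of the 54 promoters in low-score private bins runs to the right of the dotted curve over much of its length, with medians of 17.5 and 13 CpGs.

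Some genes held low-score bins of more than 1 cell. Of all 47283 RefSeq genes 335 had a low-score private bin (0.708%). Among the 237 protein-coding ones, 8 held such bins of 2 cells and none of more. The same count for higher-scored private bins was not worked out, and the rule leaves out bins with the same start in 2 cells. The 8 genes are therefore neither many nor few by any comparison made here. By the same distance, 214 of the 321 bins lay at a protein-coding gene, 28 at a long non-coding RNA gene without a protein-coding one, 7 at other genes only and 72 at no gene. The 237 genes were long, with a median of 49.95 kb against 17.3 kb for all protein-coding genes and 41.5 kb for those with higher-scored private bins, and long genes have more room for bins.

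The 8 genes and their bins were the following. In Snx25, the low-score bins were those of cell 1 (182) and cell 4 (83), 12 kb apart, and this gene also held shared bins of cells 1, 2 and 4. In Myo18b there were 3 overlapping bins of cells 2 and 4, described above. Osbpl6 held bins of cell 2 (273; chromosome 2, 76552000 to 76562000) and of cell 3 (273). Mad1l1 held bins of cell 1 (333; chromosome 5, 140279000 to 140289000) and of cell 4 (333). The others were pairs of cells 1 and 2. Dcakd, a gene related to coenzyme A synthesis, had scores of 200 (chromosome 11, 102994000 to 103004000) and 364 (103017000 to 103027000). Pex14, which imports proteins into peroxisomes, had 375 (chromosome 4, 149021000 to 149031000) and 273 (149096000 to 149106000). The zinc finger gene Hivep3 had 385 (chromosome 4, 119731000 to 119741000) and 357 (119763000 to 119773000). Ppp1r12b, a myosin phosphatase subunit gene, had 364 in both (chromosome 1, 134771000 to 134781000 and 134829000 to 134839000). In 7 of the 8 genes the low-score bins of the 2 cells did not overlap each other. Bins with the same start in 2 cells are left out by the rule. Over all 321 bins only 3.43% overlapped a demethylated bin of another cell, so this is no trait of these genes. In Ppp1r12b, the bin of cell 2 overlapped a shared bin that starts 1 kb later, with scores of 231 in cell 1 and 250 in cell 2. Without the bins that overlap a call of another cell, 5 genes were left.

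**Figure D4:**
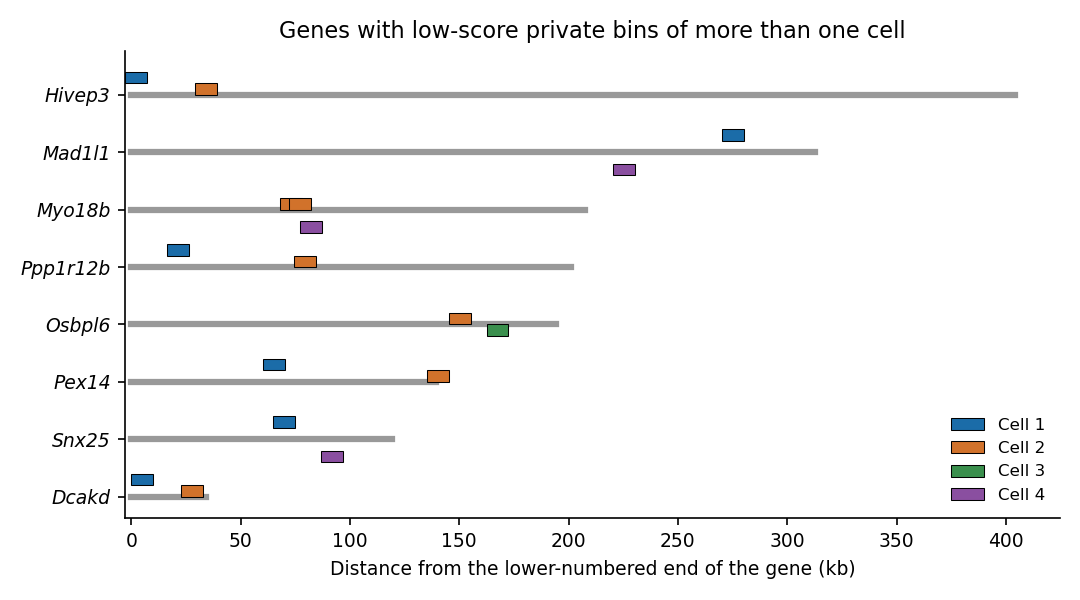
The 8 protein-coding genes with low-score private bins of 2 cells, drawn as grey lines from the lower-numbered end (horizontal axis, kb); boxes are the 10 kb bins, coloured by cell. The boxes of different cells overlap only in Myo18b, and genes range from Dcakd (34.3 kb) to Hivep3 (404 kb).

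Single cells could also hold 2 low-score bins of 1 gene. In cell 1 these included Arid1b, a chromatin remodelling subunit gene (scores 286 and 250), Meiob, a meiotic DNA-binding gene (333 and 375), and the connexin gene Gjc3 (333 and 353, in overlapping bins). In cell 2 it was Myo18b. Of the 237 genes, 24 also held another demethylated bin, shared or higher-scored (10.1%), and 17 of them in a cell without a low-score bin there. Ror2, for example, had a shared bin of cells 1 and 4 (scores 417 and 214; chromosome 13, 53201000 to 53211000) beside its bin of 100, and Nrg2 one of cells 1, 2 and 3 (600, 429 and 385; chromosome 18, 36073000 to 36083000). The share of all protein-coding genes with a shared or higher-scored bin was not worked out. The 237 genes were also long, so the 10.1% shows neither an excess nor a lack.

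Of the 53 and 23 genes in the lists of hepatocyte products and liver transcription factors, 2 and 0 had a demethylated bin of any kind. The share of all genes with a bin of any kind was not worked out. Counts of any kind in this paragraph therefore show neither a lack nor an excess. A low-score private bin was found at 0 of 53 genes for secreted and metabolic proteins of hepatocytes, at 0 of 23 genes for liver transcription factors and at 0 of 14 for enzymes and readers of DNA methylation, which allows shares of up to 5.66%, 13.0% and 21.4% (3 counts of each list). The background was 1.15% of protein-coding genes, so a count of 0 in lists of this size could not show a lack. Some liver-expressed genes outside the lists held such bins. Examples, chosen after their values were seen, were the acute-phase gene Serpina3n (273), the complement protease gene Masp2 (231) and the peroxisomal thiolase gene Acaa1a (385), all in cell 2. The Masp2 bin also held Tardbp, and the Acaa1a bin also held Myd88. Liver-expressed genes outside the lists were not counted, so these examples say nothing about such genes as a set. Of 1387 olfactory and vomeronasal receptor genes, which lie in large gene clusters, 0 had one, which allows up to 0.216%, and 2 had a demethylated bin of any kind. That limit lies below the background of 1.15%. Which bins of these clusters the cells covered is unknown, however, so no lack can be read from it. The receptor pseudogene Vmn2r-ps80, which is outside the list, had a low-score private bin in cell 2 (333). Gene length was not matched in these comparisons.

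Lists with members held few of them. Of 74 cell adhesion and synaptic genes, many of them very long, 5 had a low-score private bin (6.76%, median score 286). These were Csmd2 (364), the cadherin gene Cdh13 (286) and Dscaml1 (250) in cell 1, and the Slit receptor gene Robo1 (182) and the teneurin gene Tenm3 (353) in cell 2. Of 49 imprinted genes, which are expressed from 1 parental copy, 3 had one (6.12%): Gnas, a G-protein subunit gene, with its antisense gene Gnasas1 in the same bin of cell 1 (182; chromosome 2, 174295000 to 174305000), and Trappc9 in cell 3 (308). Of 34 markers of other liver cell types, 2 had one, the macrophage gene Cd68 (333) and the biliary gene Epcam (364), both in cell 1. The Cd68 bin also lay at Mpdu1, Eif4a1 and Senp3. The Epcam bin lay across an end of the gene, with its midpoint intergenic. The median score over all 321 bins was 308, so the list medians of 286, 245 and 348.5 lay on both sides of it. Earlier results of these data were known when the lists were drawn up, so their shares are descriptions.

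In the other lists with members 1 to 3 genes had a bin. Counts this small show neither an excess nor a lack against the background of 1.15%. Of 136 potassium, sodium and calcium channel genes, 3 had a low-score private bin (2.21%): Kcnk12 (364) in cell 1 and Kcne4 (333) and Scn10a (273) in cell 2. Of 133 chemokines, cytokines and their receptors, 2 had one (1.5%), Cxcl12 (250) and Ccr4 (77), both in cell 2. Of 51 Notch and Wnt pathway genes it was Hes1 (1.96%, score 182, cell 4). Of 101 homeobox and T-box genes it was Tbx5 (0.990%, score 364, cell 1). Of 391 zinc finger genes it was 3 (0.767%), namely Zfp536 (91) and Zfp623 (364) in cell 1 and Zfp532 (364) in cell 2.

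Low-score private bins were found on each of the 19 chromosomes with calls, and they were fewest on X. Per 100 Mb of annotated span there were 2.34 on X and between 9.62 (chromosome 14) and 24.2 (chromosome 17) on the autosomes. Chromosome 5 had 32 bins and chromosome 17 had 23, the latter all in cells 1 and 2. The 4 bins on X were all of cell 1, with scores of 91, 273, 308 and 353; only that of 308 lay at genes, Mtmr1 and Cd99l2. Higher-scored private bins on X numbered 4 as well, so that low scores were not rarer there among private bins. The share of private bins with a low score ran from 28% on chromosome 19 to 60.7% on chromosome 13. Chromosome 10 was not analysed here. The covered bins of each chromosome are unknown, so their part in these counts was not tested.

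**Figure D5:**
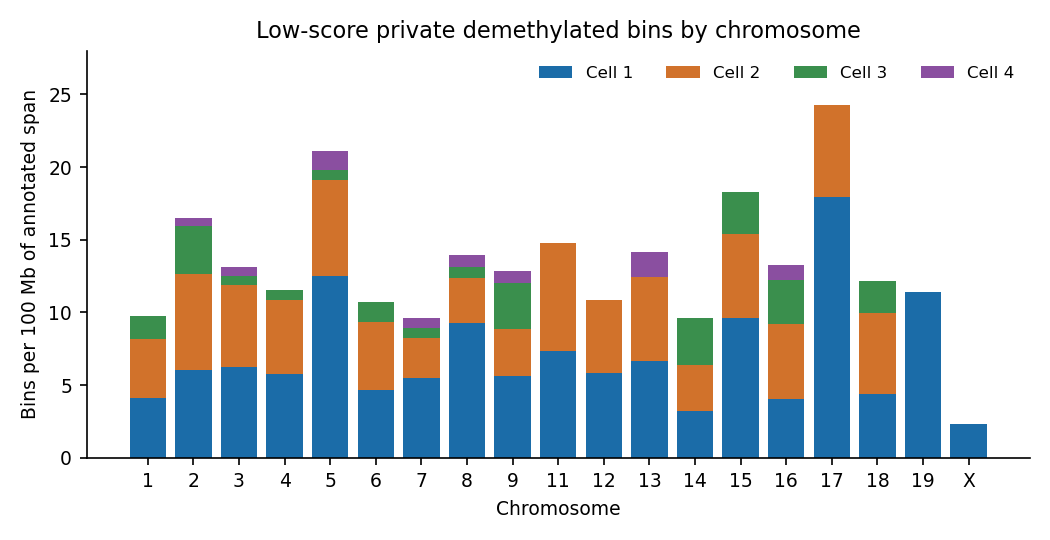
Low-score private bins per 100 Mb of annotated chromosome span (vertical axis) by chromosome (horizontal axis), stacked by single hepatocyte. Chromosome 17 stands highest at 24.2 and X lowest at 2.34, with the bins of X all from cell 1.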

How the data were processed

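Per the labels' protocols, single hepatocytes were picked by hand, and libraries were made by reduced representation bisulfite sequencing with MseI. Bismark 0.7.6, Bowtie2 2.0.0, cutadapt 1.0, Trim Galore 0.2.2, CASAVA 1.4 and the mm10 build are listed in the submitters' processing notes. The deposited lists give called bins with a score; the score is the authors' value, and neither its definition nor the calling rule is given in the sources used here. Total counts, depth and coverage are unknown. The lists carry no header.

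The members and gene lists were chosen with earlier results of these data known. Coordinates are printed as deposited. Genes came from a RefSeq table of GRCm38.p6 (49997 genes, 47283 on the chromosomes used). A gene had a bin when they overlapped with 2000 bp on either side. Promoter windows came from a RefSeq table, without chromosome 18. Entries of 100 bp were left out. Genes were named by rule: those of the 8 lowest-scored bins with a protein-coding gene in each cell, those with bins of several cells or several bins of 1 cell, those of the lists, and the 2 lowest bins without a gene; some genes that the rule names are not reported here. Location was compared over cells with a two-sided exact sign-flip permutation test of within-cell differences, with Benjamini-Hochberg adjustment over 6 comparisons, checked on simulated bins. Alternatives covered the score limit, privacy, merging, location and each cell left out. Python 3.11.15, pandas 2.3.3 and SciPy 1.17.1 were used.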

Additional observations from a re-analysis of the deposited data

Results flagged for a closer look

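The share of low scores among private bins stood apart in cell 4, where it was 71.4% against 38.4 to 42.5% in cells 1 to 3. The gap to the nearest cell was 0.874 of the whole range, above Dixon's limit for 4 samples; chance flags about 5% of groups, and 18 were examined. It rests on 14 private bins and on the score that chose the bins, so it is a description and supports nothing.

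The difference in genic share between low-score and higher-scored private bins had opposite signs with the 2 carriers, lower in cells 1 and 2 (salmon DNA) and higher in cells 3 and 4 (tRNA cDNA). The mean of cells 1 and 2 minus that of cells 3 and 4 was -9.45 percentage points. The value of cell 4 rests on 10 low-score and 4 higher-scored private bins. This difference between carriers was not tested.

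The lists also hold 17 demethylation entries of 100 bp at 7 positions, which the comparisons did not use. Of these, 9 scored below 400, among them one on chromosome 8 (128028497 to 128028597) that scored 91 in cell 1.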

How the results depend on the processing

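No comparison over cells passed 0.05 in any setting; with 1 cell left out the smallest possible p was 0.25. The genic share stayed above that of shared bins in all 13 alternatives (0.614 to 9.33 points; 6.39 to 8.92 with a cell left out). Against higher-scored private bins it turned to -2.72 with a score limit of 450 and -3.34 when any overlap counted (2.26 to 10.1 with a cell left out). The gene end difference from these bins turned to 0.520 with ends of 2000 bp and 3.02 with protein-coding genes (-7.26 to -1.09 with a cell left out). That from shared bins turned to -0.728 when private meant no overlap, -1.46 with any overlap and -1.88 with protein-coding genes (-1.65 without cell 2 and -0.174 without cell 4; up to 3.46). Gene density against higher-scored bins turned to 0.533 (limit 450), 0.0369 (100 kb) and 0.550 (protein-coding genes), 1.5 without cell 1 and 0.287 without cell 3 (down to -7.78). Against shared bins it turned to -0.152 (limit 300), -0.752 (limit 350), -0.879 (no overlap), -0.207 (autosomes) and -0.0466 (protein-coding genes), and was 0.310 to 1.85 with a cell left out. The cause of these turns was not tested.

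The 321 bins became 142 with a limit of 300 and 191 to 319 with a cell left out (191 without cell 1). The 8 genes with bins of 2 cells became 2 (limit 300), 4 (limit 350), 5 (no overlap) and 3 to 8 with a cell left out (3 without cell 1 and 3 without cell 2). The share overlapping a bin of another cell was 2.61 to 3.13% with a cell left out. Fewer lists make more bins private and fewer cells give fewer bins, by construction. No paired analysis was possible because no list of the pool was used here and the 4 cells form 1 group; kinds of bin were compared within each cell. Depth is unknown, so no limit of detection can be given for a bin absent from a list.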
